A study of Mus musculus with 16 samples.

Results

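The genes described here are the cytochrome P450 genes of families 1 to 3, taken from the count tables by their symbols: those of the form Cyp, a family digit of 1, 2 or 3, a subfamily letter and a number, leaving out Cyp2f2. The rule found 57 genes among 23420, in 15 subfamilies. The largest were 2c with 15 members, 2d with 9, and 2j and 3a with 7 each. Another 6 symbols of these families fell outside the rule, namely Cyp2f2, Cyp2ab1, Cyp3a41a, Cyp3a41b and the pseudogenes Cyp2d37-ps and Cyp2c53-ps. GENCODE M21, on the GRCm38 build, placed 55 of the 57, and all but Cyp2c44 and Cyp2d13 therefore have coordinates here.

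The series holds 16 libraries of polyadenylated RNA from 8 male C57BL/6 mice, 1 of collagenase-isolated subcutaneous adipocytes and 1 of liver from each mouse. They form 4 groups of 4, wild-type adipocytes, adipocytes of mice with an adipocyte-specific knockout of Trib1, wild-type liver, and liver of the knockout mice. The labels name neither the promoter that drives the deletion nor the deleted part of Trib1, which encodes the pseudokinase tribbles 1. The wild-type mice were WT-1135, WT-1136 and WT-1138, aged 76 days, and WT-1153, aged 70 days, and the knockout mice KO-1137 and KO-1139, aged 76 days, and KO-1151 and KO-1152, aged 70 days, so each age held both genotypes. Where 4 values of a group are listed, they follow the mouse numbers upwards.

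Cytochrome P450 enzymes are haem proteins of the endoplasmic reticulum that insert oxygen into their substrates with electrons from the reductase Por. Families 1 to 3 act mostly on foreign compounds, arachidonic acid and steroids, and the liver is their chief site. Many are switched on by ligand-activated receptors: the aryl hydrocarbon receptor (AhR, gene Ahr) for family 1, and the nuclear receptors CAR (Nr1i3) and PXR (Nr1i2) for 2b and 3a genes. In mouse liver several members also differ by sex under the control of growth hormone pulses.

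The libraries held 28560887 to 53716669 counts each. Where a gene had no count, a level of up to 3 counts remains possible, which is 0.0558 to 0.105 CPM (CPM being counts scaled by depth), for counting error only. That limit takes counts as independent, whereas low counts here were mostly even, so the true limit may be higher. Trib1 did not separate the labels: it stood at 752 to 1293 CPM in wild-type and 1071 to 1408 CPM in knockout-labelled adipocytes (edgeR adjusted p = 0.241), and every direction below is that of the labels. In adipocytes 8 of 8 endothelial, 7 of 7 mural and 6 of 8 fibroblast and progenitor markers fell in the knockout-labelled libraries, while 0 of 8 adipocyte and 0 of 6 macrophage markers passed the test. Among all 13795 genes tested there, 17.1% were called lower and 18% higher (edgeR adjusted p under 0.05). The summed endothelial markers ran from 647 to 1865 CPM in wild-type and from 179 to 399 CPM in knockout-labelled adipocytes, the mural ones from 265 to 397 and from 104 to 170 CPM, and the fibroblast ones from 797 to 1025 and from 352 to 727 CPM, with no marker of these lists at 0. In such bulk samples fewer cells of a type and less RNA per cell cannot be told apart. Endothelial, mural and fibroblast marker levels moved with the genotype labels. So did those P450 genes called in adipocytes below, 6 higher and 2 lower of 15 tested. The markers' part in those results was not tested. In liver the summed hepatocyte markers reached 128713 to 165867 CPM, and 0 markers of any list passed the test, where 0.0226% of all 13288 genes did.

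In wild-type mice the liver held nearly the whole gene group and adipocytes a small part of it, dominated by Cyp2e1, the ethanol-inducible enzyme. The members made up 2.64% to 3.84% of all counts in a liver library, whatever the genotype, and 0.244% to 0.863% in an adipocyte library. Cyp2e1 alone gave 95.3% to 98.5% of the members' counts in adipocytes and 27.5% to 34.7% in liver. All 8 adipocyte libraries were at 0 counts for 17 members, all 8 liver libraries for 5, and all 16 libraries for Cyp2j11 and Cyp2w1. In wild-type mice 13 of the 15 2c members and 8 of the 9 2d members had a mean of at least 1 CPM in liver, against 0 of 15 and 1 of 9 in adipocytes.

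Divided by exon length on the scale common to both tissues, the highest levels in liver were those of Cyp2e1 at 6749 CPM per kb, Cyp3a11 (the main drug-metabolising 3a enzyme) at 4326, Cyp2d9 (a male-predominant steroid hydroxylase) at 1190, Cyp2c29 (an arachidonate epoxygenase) at 1081 and Cyp2a5 (coumarin hydroxylase) at 935. In adipocytes the order was Cyp2e1 at 2497 CPM per kb, Cyp2d22 at 13.1, Cyp2j6 (a 2j enzyme found in many tissues) at 8.34, Cyp1a1 at 6.32 and Cyp2j9 at 4.74. Cyp3a11, in the second place in liver, came to 0.16 CPM per kb in adipocytes. The gap between the first and the second place was thus far wider in adipocytes than in liver.

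The tissue comparison of the wild-type libraries tested 45 members and called 42 lower and 3 higher in adipocytes, where 77.6% of all 14366 genes were called (37.2% lower, 40.5% higher; edgeR's quasi-likelihood test, adjusted p under 0.05). Most of the 42, such as Cyp2d10 and Cyp2j5 at 0 counts in wild-type adipocytes, passed the filter on low counts through the liver libraries alone. Their number therefore cannot be read against that share. Cyp2e1 averaged 4592 CPM (2256 to 6706) in adipocytes and 12412 CPM (9006 to 14415) in liver, a log2 change of -1.45 ± 0.38 (SE, 4 libraries a group; edgeR adjusted p = 0.00508). The ranges did not overlap, yet this was the smallest difference of the 42. Other members kept in adipocytes were Cyp2j9 (-1.60 ± 0.19), Cyp2j6 (-1.96 ± 0.10), Cyp2u1 (a long-chain fatty acid hydroxylase, -2.33 ± 0.30), Cyp2d22 (-3.72 ± 0.22) and Cyp2r1 (which makes the circulating form of vitamin D, -3.96 ± 0.17).

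The members higher in adipocytes were Cyp1a1, Cyp1b1 and Cyp2t4. Cyp1a1 averaged 17.6 CPM in adipocytes and 1.65 CPM in liver, 3.36 ± 0.56 apart on the log2 scale (4 libraries a group; edgeR adjusted p = 0.000212), and Cyp1b1 2.24 and 0.907 CPM, a difference of 1.29 ± 0.28 (edgeR adjusted p = 0.00151). For Cyp2t4, at 0.726 and 0.306 CPM, the call (1.20 ± 0.49, edgeR adjusted p = 0.043) was lost when any 1 of the 4 mice was left out, at adjusted p from 0.0583 to 0.12, and with the mouse as a block at 0.0506. Cyp1a2, the neighbour of Cyp1a1 on chromosome 9, went the other way, with 1165 CPM in liver and 12 counts in all 4 wild-type adipocyte libraries, 10 of them in WT-1153.

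**Figure D1:**
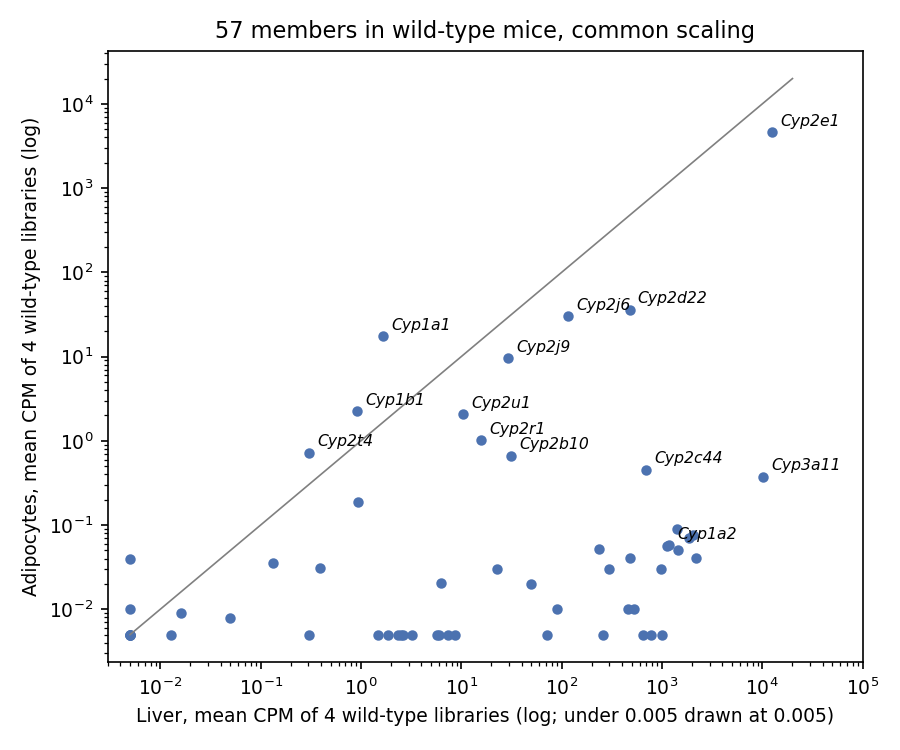
Each point is 1 of the 57 members, with the mean CPM of the 4 wild-type liver libraries on the x axis and of the 4 wild-type adipocyte libraries on the y axis, both log axes on a common scale, and the line marks equal levels. Most points lie along the bottom, Cyp2e1 stands at 12412 and 4592 CPM, and of the members tested Cyp1a1, Cyp1b1 and Cyp2t4 lie above the line.

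Traces of liver-type members in adipocyte libraries were uneven. For 18 members that reached at least 100 CPM in every wild-type liver and were too low to test in adipocytes, WT-1153 held 150 counts over 12 members, and the other 7 adipocyte libraries held 6 to 36 counts over 3 to 8 members. Leaving WT-1153 out of the genotype comparison in adipocytes left 6 members higher and 2 lower, as with it.

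In adipocytes the knockout-labelled libraries had less RNA of the AhR targets Cyp1a1 and Cyp1b1, and more of 4 of the 5 Cyp2b genes, of Cyp2j12 and of Cyp2r1. Cyp2e1, which dominates the group there, and the larger 2d and 2j members did not pass the test. Of 15 members tested, 6 rose and 2 fell, where 35.2% of all 13795 genes were called, 18.0% higher and 17.1% lower. Cyp2b9, Cyp2b13, Cyp2b23 and Cyp2j12 passed the filter on low counts through the knockout-labelled libraries alone, so that the 6 cannot be read against that share. Cyp2b13, Cyp2b23 and Cyp2j12 stayed under 1 CPM on average and are named because they were called, a choice made after their values were seen.

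**Figure D2:**
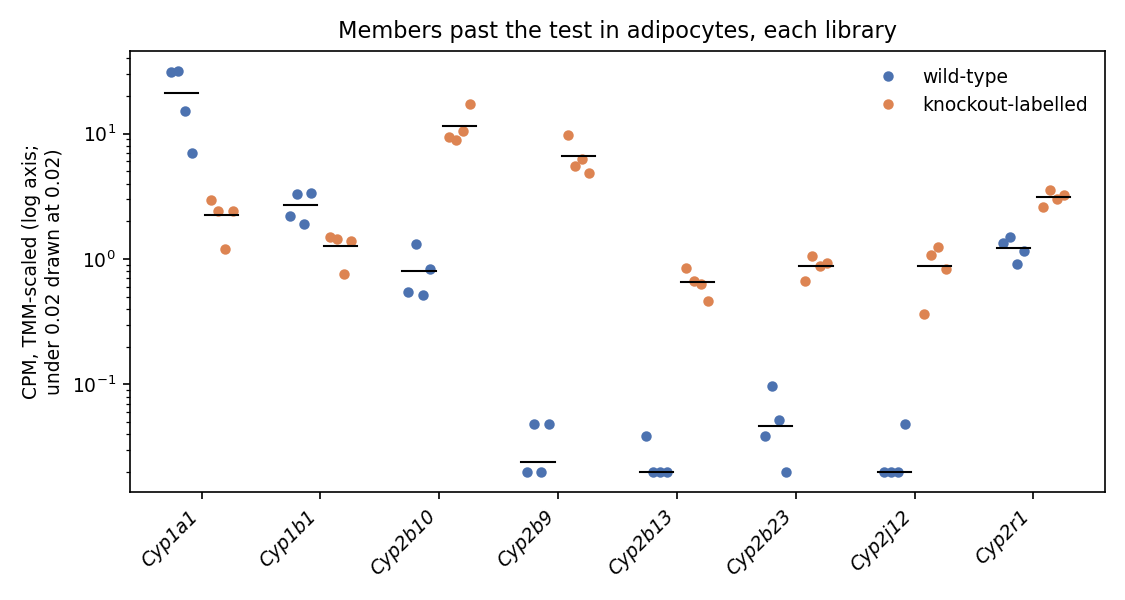
CPM on a log axis for the 8 members that passed the test in adipocytes, 1 point per library, with bars at the means of the 4 wild-type and 4 knockout-labelled libraries and values under 0.02 drawn at 0.02. Cyp1a1 and Cyp1b1 are lower and the other 6 higher in the knockout-labelled libraries.

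Cyp1a1 and Cyp1b1 oxidise polycyclic aromatic hydrocarbons and oestrogens and are the classic targets of AhR, which binds DNA at a core of GCGTG. The 100 bases before each start site are shown because both members fell together and both windows hold that core, in capitals, as GCGTG or, on the other strand, as CACGC (RefSeq, GRCm38.p6, each on the gene's own strand).
Cyp1a1, chr9:57697513-57697612, plus strand: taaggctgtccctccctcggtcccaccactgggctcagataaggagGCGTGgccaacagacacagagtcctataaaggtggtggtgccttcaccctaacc
Cyp1b1, chr17:79715062-79715161, minus strand: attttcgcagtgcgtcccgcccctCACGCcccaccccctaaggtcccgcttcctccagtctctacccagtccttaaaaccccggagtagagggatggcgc
The core starts 54 bases before the start site of Cyp1a1 and 76 before that of Cyp1b1. These 5 letters are common: on either strand they occur in 32.4% of 32851 promoter windows of 300 bases (250 before to 50 after a start site) and in 10 of the 52 windows of the members (19.2%), which cover 49 of the 57. The window of Cyp1a2 holds none, and the core also occurs in those of Cyp2b10, Cyp2j12 and Cyp2r1, which rose.

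Cyp1a1 spans chromosome 9 from 57687928 to 57703824 on the plus strand. Gene spans are those of GENCODE, whereas the sequences shown precede RefSeq start sites. The Cyp1a1 sequence therefore lies inside this span, and those of Cyp2b10 and Cyp2b23 below overlap theirs. The level of Cyp1a1 was 31.0, 31.7, 15.2 and 6.99 CPM in the wild-type and 2.98, 2.43, 1.20 and 2.42 CPM in the knockout-labelled adipocytes. Every wild-type value lay above every knockout-labelled one, and the wild-type values spread over a wider range. The log2 change was -3.23 ± 0.48 (SE, 4 libraries a group; edgeR adjusted p = 0.0014), which is 9.35-fold lower.

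Cyp1b1, on chromosome 17 from 79701537 to 79715061 on the minus strand, is known from stromal and vascular cells as well as fat. It stood at 2.21, 3.29, 1.91 and 3.36 CPM in wild-type and 1.51, 1.45, 0.764 and 1.38 CPM in knockout-labelled adipocytes. Here too the groups did not overlap, with KO-1151 lowest. The change was -1.07 ± 0.29 (edgeR adjusted p = 0.0179). Among the 3 wild-type and 2 knockout-labelled mice of day 76 it was -0.74 and did not pass (edgeR adjusted p = 0.194).

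Of the AhR pathway list, 8 of 11 genes were tested in adipocytes, and 2 fell and 0 rose, where 17.1% of all genes fell and 18.0% rose. Nqo1, a quinone reductase and AhR target, fell from 5.34 to 7.82 CPM in wild-type to 1.97 to 2.31 CPM (-1.64 ± 0.17, edgeR adjusted p = 0.000201). Ahr itself fell from 11.5 to 31.9 CPM to 7.24 to 8.59 CPM (-1.37 ± 0.27, edgeR adjusted p = 0.00485). Next by p was the aldehyde dehydrogenase gene Aldh3a1, at 0.111 and 0.43 CPM, which did not pass (edgeR adjusted p = 0.0662). Tiparp, a feedback repressor of AhR and also its target, stood at 198 to 487 and 266 to 468 CPM, which overlapped (edgeR adjusted p = 0.502). Gsta1 was at 0 in all adipocyte libraries.

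The Cyp2b genes, whose best-known member Cyp2b10 is the phenobarbital-inducible CAR target, lie together on chromosome 7. Cyp2b9 and Cyp2b13 are female-predominant in mouse liver. The 5 promoters are shown because 4 of the genes rose together and the fifth, Cyp2b19, did not. Capitals mark TTGNATAA, which was picked after the sequences had been read (RefSeq, GRCm38.p6, each on the gene's own strand).
Cyp2b10, chr7:25897558-25897657, plus strand: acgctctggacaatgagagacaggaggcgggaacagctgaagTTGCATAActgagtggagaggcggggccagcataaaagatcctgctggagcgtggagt
Cyp2b9, chr7:26173309-26173408, plus strand: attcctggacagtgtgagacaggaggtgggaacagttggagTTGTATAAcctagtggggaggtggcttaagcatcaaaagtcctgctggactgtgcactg
Cyp2b13, chr7:26061395-26061494, plus strand: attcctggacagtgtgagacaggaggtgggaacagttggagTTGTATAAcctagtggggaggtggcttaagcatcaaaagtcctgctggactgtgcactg
Cyp2b23, chr7:26686431-26686530, minus strand: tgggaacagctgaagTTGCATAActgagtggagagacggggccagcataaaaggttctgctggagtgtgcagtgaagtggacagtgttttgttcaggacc
Cyp2b19, chr7:26757042-26757141, plus strand: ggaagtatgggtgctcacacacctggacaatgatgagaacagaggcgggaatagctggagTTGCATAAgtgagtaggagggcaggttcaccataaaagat
The stretches of Cyp2b9 and Cyp2b13 are identical, and their full windows of 300 bases differ by 2 edits (99.3% identity). The other pairs were 57% to 72% identical over 300 bases. TTGNATAA, on either strand, occurs in 2.81% of all windows and in 11 of the 52 members' windows (21.2%): in all 5 Cyp2b genes, and in Cyp2a4, Cyp2a5, Cyp2c65, Cyp2c66, Cyp2j11 and Cyp2w1. Cyp2b19 and the last 6 were at or near 0 in adipocytes of both genotypes, so holding these letters did not separate the members that rose from those that did not.

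Cyp2b10, from 25897620 to 25926624 on the plus strand, stood at 0.54, 1.31, 0.52 and 0.83 CPM in wild-type and 9.35, 8.92, 10.5 and 17.1 CPM in knockout-labelled adipocytes. The lowest knockout-labelled value lay well above the highest wild-type one. The log2 change was 3.84 ± 0.34 (SE, 4 libraries a group; edgeR adjusted p = 0.000112), which is 14.4-fold higher.

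Cyp2b9, from 26173411 to 26210661 on the plus strand, was close to 0 in wild-type adipocytes at 0, 0.0484, 0 and 0.0487 CPM. The knockout-labelled libraries held 9.74, 5.52, 6.30 and 4.88 CPM (edgeR adjusted p = 3.51e-05). That is 4 counts in all against 1091, a ratio of 289 (95% exact interval 79.7 to 2396 on halved counts, for counting error only).

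Cyp2b13 and Cyp2b23 showed the same order at lower levels. Cyp2b13 had 2 counts over the wild-type and 108 over the knockout-labelled libraries, a ratio of 58.2 (10 to 2340), with 0.462 to 0.848 CPM in the latter (edgeR adjusted p = 0.00055). Cyp2b23 had 8 against 144 counts, a ratio of 19.3 (7.23 to 72.8), with 0.665 to 1.06 CPM (edgeR adjusted p = 0.000696). Cyp2b19, known from skin, had 2 counts in KO-1137 and 0 in the other 15 libraries.

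Summed over the 5 genes, the subfamily went from 0.619, 1.45, 0.569 and 0.877 CPM in wild-type adipocytes to 20.7, 16.2, 18.3 and 23.4 CPM, with no test on the sum. These values lay within the range of the 8 livers, 3.47 to 64.3 CPM, where the sum was 31.5 ± 23.3 CPM in wild-type and 19.8 ± 22.9 CPM (SD) in knockout-labelled libraries, each tissue on its own scale. The makeup differed: in knockout-labelled adipocytes all of Cyp2b10, Cyp2b9, Cyp2b13 and Cyp2b23 had counts in every library, whereas Cyp2b23 was at 0 in all 8 livers and Cyp2b13 reached at most 0.0794 CPM there. Of the 75-base stretches of the Cyp2b9 transcript 5.16% also occur in that of another member, as do 7.66% of Cyp2b13, 2.01% of Cyp2b10 and 1.80% of Cyp2b23, so most of each transcript can be told apart at that length. The study's read length is not given in the sources used here.

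**Figure D3:**
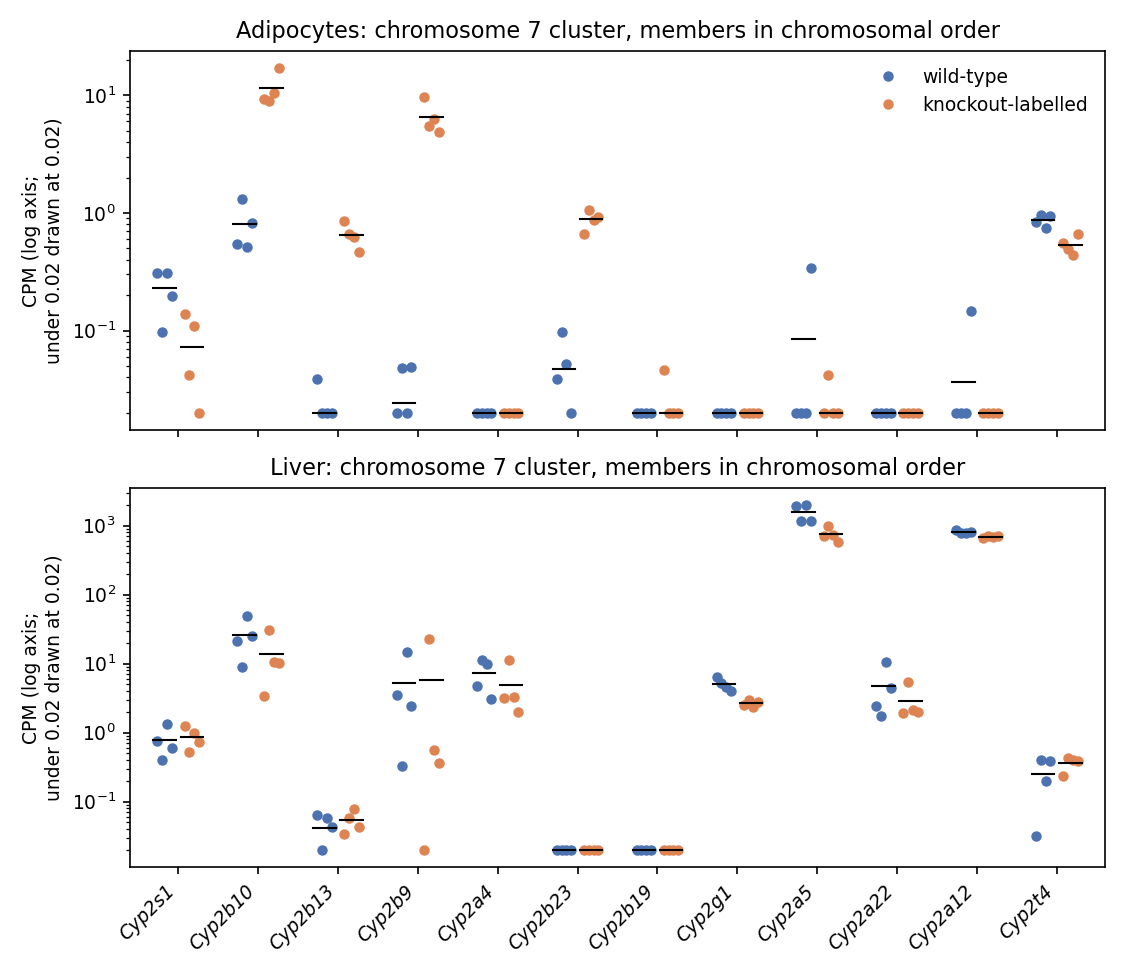
CPM on log axes for the 12 members of the Cyp2 cluster of chromosome 7 in chromosomal order, in adipocytes (top) and liver (bottom), 1 point per library with bars at the means of 4 libraries and values under 0.02 drawn at 0.02. In adipocytes Cyp2b10, Cyp2b13, Cyp2b9 and Cyp2b23 stand higher in the knockout-labelled libraries, between genes such as Cyp2a4, Cyp2b19 and Cyp2g1 that are at or near 0; in liver Cyp2a5 and Cyp2a12 are the highest of the cluster.

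The neighbours of the Cyp2b genes did not share the rise. In adipocytes Cyp2a4, Cyp2a22 and Cyp2g1 were at 0 in all 8 libraries, and Cyp2a5 and Cyp2a12 had counts in 2 libraries and 1 library. Cyp2s1, at one end of the cluster, had 40 counts over the wild-type and 12 over the knockout-labelled adipocytes and was too low to test. Cyp2t4, at the other end, was at 0.875 ± 0.103 and 0.537 ± 0.0963 CPM (SD), with no overlap, and did not pass (-0.70 ± 0.26, edgeR adjusted p = 0.0587).

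Cyp2j12, a 2j gene on chromosome 4 from 96099318 to 96141152 on the minus strand, had 2 counts in WT-1153 and 0 in the other wild-type adipocytes. The knockout-labelled libraries held 0.367, 1.08, 1.25 and 0.837 CPM, 143 counts in all, a ratio of 76.2 (95% exact interval 13.2 to 3051 on halved counts; edgeR adjusted p = 0.000898). All 8 livers were at 0 for it. The other 2j genes tested in adipocytes, Cyp2j6 and Cyp2j9, did not pass the test. Cyp2j6 was at 32.8, 35.6, 37.1 and 39.7 CPM in wild-type and 38.5, 43.7, 39.9 and 46.6 CPM in knockout-labelled libraries, ranges that overlapped (0.22 ± 0.09, edgeR adjusted p = 0.0845). With all 16 libraries of both tissues in the fit Cyp2j6 passed, at 0.24 (edgeR adjusted p = 0.0492). Cyp2j9 was at 11.7 ± 2.04 and 10.3 ± 1.34 CPM (SD; edgeR adjusted p = 0.379).

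Cyp2r1, a vitamin D hydroxylase gene on chromosome 7 from 114549682 to 114562972 and far from the Cyp2b genes, rose in adipocytes. It stood at 1.35, 1.5, 0.905 and 1.15 CPM in wild-type and 2.59, 3.55, 3.03 and 3.23 CPM in knockout-labelled libraries. The values did not overlap and were tight within each group. The change was 1.33 ± 0.22 (SE, 4 libraries a group; edgeR adjusted p = 0.00215), which is 2.52-fold higher. In the 5 mice of day 76 alone it was 1.29 with an edgeR adjusted p of 0.0503.

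Cyp2e1, on chromosome 7 from 140763739 to 140774987, was at 2752, 7918, 5024 and 6398 CPM in wild-type and 2361, 4160, 4755 and 4344 CPM in knockout-labelled adipocytes. The groups overlapped, and WT-1135 was nearer to the knockout-labelled libraries than to the other wild-type ones. The change of -0.50 ± 0.32 did not pass (edgeR adjusted p = 0.247). Cyp2u1 was at 1.66 to 3.28 CPM and 3.29 to 4.46 CPM, without overlap, and did not pass either (0.62 ± 0.23, edgeR adjusted p = 0.0651), though it did with DESeq2 (adjusted p = 0.0401). Cyp2d22 was at 43.8 ± 13.6 and 42.6 ± 9.33 CPM (SD; -0.04 ± 0.22, edgeR adjusted p = 0.904), and Cyp2c44, the 2c gene with the most counts in fat, at 0.55 ± 0.259 and 0.365 ± 0.246 CPM (edgeR adjusted p = 0.553).

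Genes that serve or regulate these enzymes were followed as lists. Of 10 tested redox partners and haem genes 4 rose and 0 fell in adipocytes, beside 18.0% of all genes higher: Pgrmc2, a haem-binding P450 partner (0.55 ± 0.10, edgeR adjusted p = 0.00294), the cytochrome b5 reductases Cyb5r1 (0.54 ± 0.11) and Cyb5r3 (0.41 ± 0.09), and Cyb5b. Por, the common reductase, was at 670 ± 53.5 and 622 ± 68.5 CPM (SD; edgeR adjusted p = 0.46). The list's median log2 change was 0.281, beside -0.011 over all genes.

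Of the xenosensors and liver factors 7 of 15 could be tested in adipocytes and 1 rose, the oxysterol receptor gene Nr1h3 (0.49 ± 0.13, edgeR adjusted p = 0.0169), beside 18.0% of all genes higher. Next by p, without passing, were Ppara (0.42 ± 0.18, edgeR adjusted p = 0.102) and Cebpb (0.22 ± 0.14, edgeR adjusted p = 0.247). The CAR gene Nr1i3 was at 0 to 0.0967 CPM and the PXR gene Nr1i2 at 0 to 0.0484 CPM in all adipocyte libraries, with Nr1i2 at 0 in 7 of the 8, and Foxa2 was at 0 in each. In the knockout-labelled adipocytes, where Cyp2b10 rose, Nr1i3 reached at most 0.0577 CPM and Nr1i2 was at 0. In wild-type liver Nr1i3 averaged 248 CPM and Nr1i2 108 CPM.

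On the growth hormone axis, which sets sex-biased P450 levels in liver, the receptor gene Ghr rose in adipocytes (1.05 ± 0.18, edgeR adjusted p = 0.00242) and Jak2 fell (-0.44 ± 0.13, edgeR adjusted p = 0.0307), of 8 tested and beside 35.2% of all genes called. Stat5a came next by p and did not pass (-0.27 ± 0.12, edgeR adjusted p = 0.114). Among 8 tested conjugation and epoxide hydrolysis genes, the epoxide hydrolase gene Ephx1 (-1.98 ± 0.31, edgeR adjusted p = 0.00166) and the sulfotransferase gene Sult1a1 (-1.38 ± 0.23, edgeR adjusted p = 0.00219) fell and the methyltransferase gene Tpmt rose (0.34 ± 0.11, edgeR adjusted p = 0.0349), again beside 35.2% of all genes. Ugt2b38 was at 0 in all adipocyte libraries. In liver 0 genes of these 5 lists passed the test.

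Sorted by known regulation, both tested AhR targets fell in adipocytes, and the single tested target of CAR and PXR, Cyp2b10, rose. Across all genes 17.1% fell and 18.0% rose. Cyp2b9 and Cyp2b13 are known as female-biased in liver and Cyp2j12 belongs to the list of all 2c and 2j members, the subfamilies that hold arachidonate epoxygenases. These 3 entered the test through the knockout-labelled libraries alone, so their calls say nothing about those lists. The other 3 tested 2c and 2j members did not pass. In liver 3 AhR targets, 3 CAR and PXR targets, 6 female-biased members and 17 members of the 2c and 2j list were tested and 0 passed.

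In liver 0 of 47 tested members passed the edgeR test, where 3 of 13288 genes did (0.0226%), and the smallest adjusted p was 0.253. DESeq2 called Cyp2a5 and Cyp2g1 lower and Cyp2c67 and Cyp2c70 higher, where it called 0.768% of all genes. At an unadjusted p under 0.05 there were 5 members higher and 7 lower, beside 8.62% of all genes, and these 12 are described below because of it, a choice made after their values were seen. The groups did not overlap for 8 of the 47, and for 4.66% of all genes. The median log2 change was -0.101 over the members, beside 8.14e-05 over all genes tested. Of the members 18 lay above and 29 below 0, with no test on that split.

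The summed 2a and 3a subfamilies were lower and the other large sums close between the genotypes, given here with no test. The 2a sum was 2834, 1955, 2781 and 1998 CPM in wild-type and 1368, 1707, 1410 and 1275 CPM in knockout-labelled liver. The 3a sum was 9174, 9428, 10981 and 10024 CPM in wild-type and 8461, 6912, 7429 and 7916 CPM in knockout-labelled liver. Neither pair of ranges overlapped. Means of the 2c sum were 5538 ± 1210 and 5626 ± 244 CPM (SD), of the 2d sum 4289 ± 832 and 4157 ± 302, of the 2j sum 776 ± 60.1 and 730 ± 38.4, and of Cyp2e1 10345 ± 2037 and 10356 ± 635.

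Cyp2a5, from 26835305 to 26843548 on chromosome 7, led the 2a difference. It stood at 1952, 1162, 1974 and 1183 CPM in wild-type and 706, 989, 726 and 571 CPM in knockout-labelled liver. The wild-type livers fell into a higher and a lower pair, both above all knockout-labelled livers. The difference was -1.07 ± 0.22 (SE, 4 libraries a group; edgeR adjusted p = 0.26, DESeq2 adjusted p = 0.000453). Its neighbour Cyp2g1, best known from the nasal lining and lying from 26808892 to 26821205, was at 6.32, 5.21, 4.57 and 3.98 CPM against 2.52, 3.01, 2.38 and 2.75 CPM (-0.91 ± 0.18, edgeR adjusted p = 0.253, DESeq2 adjusted p = 0.00172). Cyp2a12, further along, was at 780 to 875 CPM and 656 to 701 CPM (-0.25 ± 0.08, edgeR adjusted p = 0.509). Of the 75-base stretches of Cyp2a5, 18.0% also occur in Cyp2a4, which was at 3.08 to 11.4 and 1.98 to 11.4 CPM.

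Cyp3a11 was at 7952, 8113, 9075 and 8664 CPM in wild-type and 7499, 5613, 6402 and 6639 CPM in knockout-labelled liver, without overlap (-0.37 ± 0.12, edgeR adjusted p = 0.5). Cyp3a25, Cyp3a44 and Cyp3a59 lay in the same direction at -0.37 ± 0.17, -0.62 ± 0.20 and -0.64 ± 0.18 (edgeR adjusted p from 0.412 to 0.578). Cyp3a13 was at 197 ± 39.3 and 180 ± 47.8 CPM (SD; edgeR adjusted p = 0.868).

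The higher 5 were 2c genes of chromosome 19. Cyp2c70, which makes the muricholic bile acids of mice, was at 423, 344, 330 and 490 CPM in wild-type and 597, 493, 570 and 606 CPM in knockout-labelled liver (0.51 ± 0.13, edgeR adjusted p = 0.369, DESeq2 adjusted p = 0.0339). Cyp2c67 was at 231, 249, 237 and 265 CPM and 404, 277, 323 and 339 CPM (0.45 ± 0.11, edgeR adjusted p = 0.357, DESeq2 adjusted p = 0.0303), and Cyp2c68 at 216 ± 27.0 and 292 ± 72.8 CPM (SD). Cyp2c70 and Cyp2c67 did not overlap between the groups, and Cyp2c68 did.

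The female-predominant Cyp2c40 was at 8.27, 4.71, 5.99 and 5.77 CPM in wild-type and 36.7, 11.9, 9.17 and 16.4 CPM in knockout-labelled liver (1.58 ± 0.38, edgeR adjusted p = 0.342). Cyp2c69 was at 3.06, 1.96, 1.39 and 2.02 CPM and 18.1, 4.91, 2.94 and 5.89 CPM (1.90 ± 0.50, edgeR adjusted p = 0.376). The other members known as female-biased did not share a direction in liver. Cyp2b9 lay at 0.13, Cyp3a44 at -0.62, Cyp2a4 at -0.55 and Cyp3a16 at -0.25, without passing. Without KO-1137 the change was 1.02 for Cyp2c40 (edgeR adjusted p = 0.433) and 1.12 for Cyp2c69 (edgeR adjusted p = 0.678). KO-1137 was the highest library for Cyp2c40, Cyp2c69, Cyp2c67 and Cyp2c68. Those 4 transcripts share 57.1%, 43.2%, 36.0% and 28.5% of their 75-base stretches with another member, so reads can be split among them and their values are not separate measurements, whereas Cyp2c70 shares none.

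**Figure D4:**
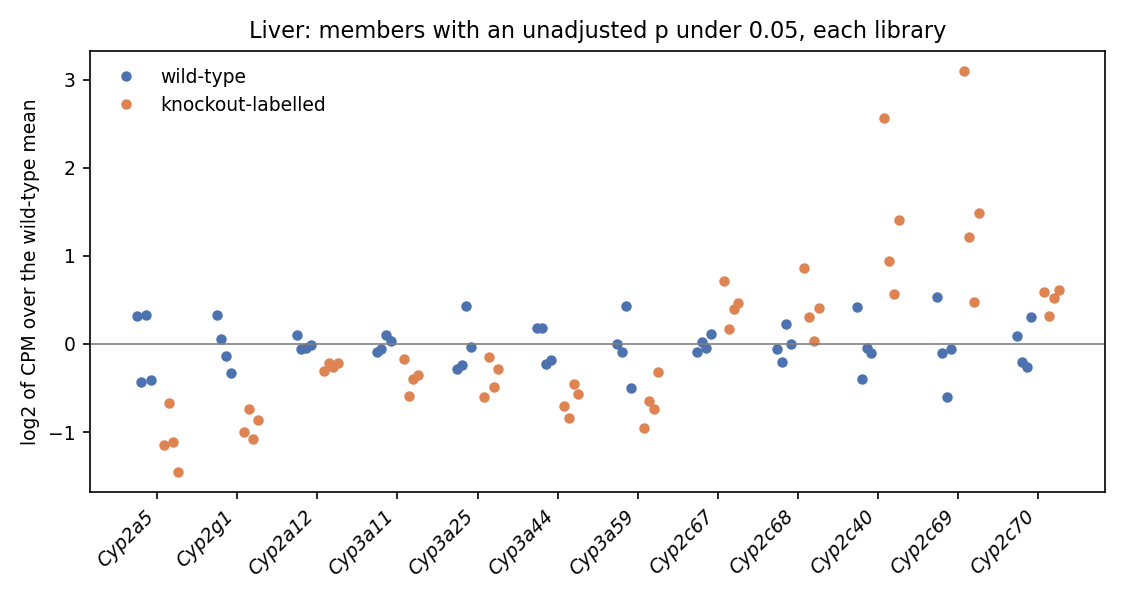
For the 12 members with an unadjusted p under 0.05 in liver, each point is the log2 of a library's CPM over the wild-type mean of that gene, in 4 wild-type and 4 knockout-labelled livers. The 2a, 2g and 3a genes lie below 0 and the 5 2c genes above it in most knockout-labelled livers, and Cyp2c40 and Cyp2c69 have their highest points in KO-1137.

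Members with the highest liver level of their subfamily did not pass otherwise. Cyp1a2 was at 1023, 597, 1036 and 1229 CPM in wild-type and 916, 1049, 984 and 884 CPM in knockout-labelled liver (-0.02 ± 0.18, edgeR adjusted p = 0.983). Cyp2c29 was at 1822 ± 432 and 1568 ± 59.1 CPM, Cyp2d9 at 1698 ± 414 and 1584 ± 122 CPM, and Cyp2j5, a liver and kidney epoxygenase, at 654 ± 68.5 and 613 ± 34.7 CPM (SD; edgeR adjusted p from 0.713 to 0.889). For Cyp2r1 the levels were 13.2 ± 0.623 and 11.3 ± 1.29 CPM, and for Cyp2u1 8.57 ± 2.97 and 7.94 ± 1.76 CPM. WT-1136 had the lowest of the 4 wild-type values for 14 of the 21 members at 100 CPM or more in wild-type liver, while WT-1138 had the highest for 10. Among the knockout-labelled livers KO-1139 had the highest value for 12 of these 21.

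The Cyp2b genes varied widely between livers of 1 genotype. Cyp2b9 was at 3.51, 0.332, 14.9 and 2.41 CPM in wild-type and 0, 22.6, 0.556 and 0.363 CPM in knockout-labelled liver, with KO-1139 far above the other 3. Its difference was 0.13 ± 1.33 (edgeR adjusted p = 0.984) and turned to -3.96 without KO-1139. Cyp2b10 was at 21.3, 8.90, 49.3 and 25.3 CPM and 3.44, 31.1, 10.5 and 10.3 CPM (-0.92 ± 0.59, edgeR adjusted p = 0.692). WT-1138 and KO-1139 had the highest value of their group for both genes.

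The genotype difference itself differed between the tissues for 6 of 50 tested members (19.1% of 14898 genes; edgeR, 16 libraries), 4 of them higher in adipocytes (10.4% of all genes) and 2 lower (8.73%). It was higher in adipocytes for Cyp2b10 by 4.78 ± 0.82 on the log2 scale (edgeR adjusted p = 0.0012) and for Cyp2r1 by 1.57 ± 0.21 (edgeR adjusted p = 0.000172). It was lower in adipocytes for Cyp1a1 by a log2 difference of -3.05 ± 0.67 (edgeR adjusted p = 0.00558) and for Cyp1b1 of -1.41 ± 0.38 (edgeR adjusted p = 0.0168). Cyp2b9 (edgeR adjusted p = 0.0296) and Cyp2b13 (edgeR adjusted p = 0.00542) were also higher in adipocytes, but their wild-type adipocytes were near 0 and the size of the difference depends on the fit. Cyp2b13 entered this test through the knockout-labelled adipocytes alone, so its call is no evidence of a tissue difference. The call was lost for Cyp2b9 without any 1 of KO-1152, KO-1151, WT-1138 and WT-1135 (edgeR adjusted p from 0.0541 to 0.112), and for Cyp1b1 without KO-1151 (edgeR adjusted p = 0.0532). Members at 0 in a group, such as Cyp2b23 and Cyp2j12, are among the 50 and were not called. With a group at 0 their difference has no reliable size, and the missing call is no result about them. The 6 of 50 therefore cannot be read against the share of all genes. Cyp2e1 (-0.48 ± 0.42, edgeR adjusted p = 0.446), Cyp2j6 (0.24 ± 0.12, edgeR adjusted p = 0.195) and Cyp2u1 (0.75 ± 0.37, edgeR adjusted p = 0.168) did not pass.

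**Figure D5:**
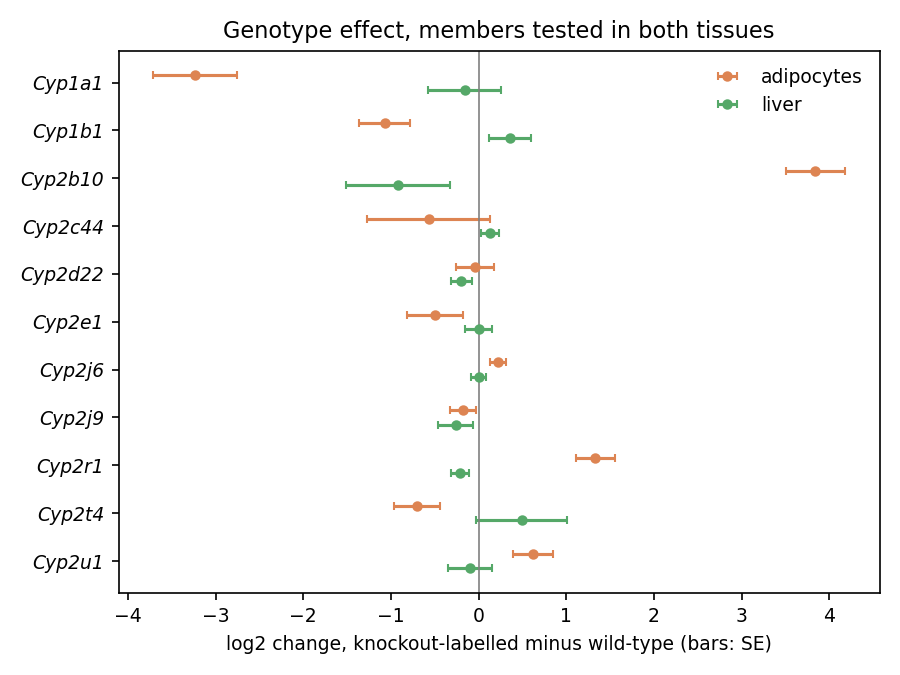
Log2 change of knockout-labelled against wild-type libraries, with SE bars and 4 libraries per group, in adipocytes and liver for 11 members tested in both tissues, Cyp2b9 being left out. Cyp1a1 at -3.23 and Cyp2b10 at 3.84 stand farthest from 0 in adipocytes, and the liver values lie between -0.92 and 0.49.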

How the data were processed

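Per the labels, adipocytes came from collagenase-digested subcutaneous fat, and TruSeq libraries were made from poly-A RNA of both tissues. The values are the authors' raw read counts by gene symbol, deposited as 1 file per library, and bcl2fastq 2.17, STAR 2.5.2b, featureCounts 1.5.0 and the build mm10 are named in the submitters' processing notes. For the annotation, the strand setting and reads that match several genes, the settings were not given in the sources used here. Of the counts from 1 to 20, 77.9% were even (13036 values of 2 against 2716 of 1), so low counts are not independent molecules and ratios near 0 were computed on halved counts with exact binomial 95% intervals.

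Tissue and genotype labels gave the 4 groups. Tests were edgeR's quasi-likelihood tests (version 4.0.16 in R 4.3.3) over the whole table of a comparison, with TMM scaling, filterByExpr by group, two-sided p-values and Benjamini-Hochberg adjustment over all genes tested, and an adjusted p under 0.05 as the threshold. SE is the log2 change divided by the square root of F. CPM values are TMM-scaled within a tissue, except in the tissue comparison, which uses 1 scale over all 16 libraries. TMM factors ran from 1.02 to 1.16 in wild-type and from 0.898 to 0.984 in knockout-labelled adipocytes, and from 0.97 to 1.03 in liver. Nothing in the labels says more of the replicates than that each is a mouse. Alternatives were DESeq2 1.42.0, other scalings, no filter, all 16 libraries in 1 fit, age as a covariate, day 76 only, halved counts, each library left out and, between tissues, the mouse as a block. The pairing comes from the labels, which give both tissues of a mouse the same number, and after subtracting group means the 2 libraries of a mouse had r of -0.089 to 0.149 over all genes.

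On simulated data with known changes the test called 77.6% of 2-fold changes in adipocytes (35.8% of 1.5-fold ones) and 95.5% (35.8%) in liver, among 13795 and 13288 genes, 73.1% of 2-fold changes between tissues among 14366 genes, and 64.2% for the tissue difference of the genotype effect among 14898. Each rate rests on 67 changed genes with a mean over 1 CPM and does not carry over to members under that level. Nor do the rates bound the real liver result, where 3 of 13288 genes passed and Cyp2a5, 2.1-fold lower, did not.

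Members with values given were those called with a mean of at least 1 CPM in a group, the highest member of each subfamily in each tissue, and Cyp1a1, Cyp1a2, Cyp1b1, Cyp2e1, Cyp2b9, Cyp2b10, Cyp3a11, Cyp2r1 and Cyp2u1, and of each pathway list the 3 genes with the smallest adipocyte p. The members, lists and rules were chosen with earlier results of these data known. The lists of markers were of adipocytes, hepatocytes, endothelium, fibroblasts and progenitors, mural cells, macrophages, epithelium and cholangiocytes. Of 5 tested hepatocyte markers in adipocytes Fga and Serpina3k were higher and Alb lower in knockout-labelled libraries (summed list 51.6 to 136 and 47.6 to 119 CPM). No epithelial marker passed the filter there (summed 0.207 to 3.42 and 0.231 to 0.458 CPM), and of 2 tested cholangiocyte markers Sox9 was higher (summed 2.91 to 6.73 and 3.57 to 5.56 CPM). Across all genes tested in adipocytes 18% were called higher and 17.1% lower. Proteins are not used here.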

Additional observations from a re-analysis of the deposited data

Results flagged for a closer look

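In 62 groups of 4 libraries examined for a value far from the rest, 2 were found, and chance alone gives such a value in about 1 group of 20. Cyp1b1 in the adipocytes of KO-1151 was at 0.764 CPM, where the other 3 knockout-labelled libraries were at 1.38 to 1.51 CPM. Cyp2b9 in the liver of KO-1139 was at 22.6 CPM, where the other 3 were at 0 to 0.556 CPM.

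The genotype difference differed between adipocytes and liver, by a test of that difference in edgeR, for 6 members, given as the adipocyte minus the liver log2 change. It was -3.05 for Cyp1a1, -1.41 for Cyp1b1, 4.78 for Cyp2b10 and 1.57 for Cyp2r1. The values of 5.09 for Cyp2b13 and 7.83 for Cyp2b9 rest on 2 and 4 counts in wild-type adipocytes and are no measure of size. Cyp2b13 entered that test through the knockout-labelled adipocytes alone, so its call is no evidence of a tissue difference.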

How the results depend on the processing

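Low counts that are mostly even, near-identical members and 4 mice a group limit these results, and genes under a few counts have no reliable size of change. Leaving out each replicate in turn gave 6 to 7 members higher and 2 lower in adipocytes, 0 and 0 in liver, 2 higher and 42 to 43 lower between tissues, and 3 to 5 higher and 1 to 3 lower for the difference between tissues. With day 76 only, 1 member was lower in adipocytes, Cyp1a1. DESeq2 gave 2 higher and 2 lower members in liver and 4 lower for the difference between tissues. With the mouse as a replicate block, 2 members were higher (Cyp2t4 being lost, at 1.368) and 42 lower between tissues, and 4 higher and 2 lower for the difference, and no other of the calls followed changed. With all 16 libraries in 1 fit, 8 members were higher, Cyp2j6 among them, and 2 lower in adipocytes. Cyp2u1 passed there as higher with DESeq2 and without WT-1138. Halved counts left Cyp2b13 and Cyp2j12 untested and gave 4 higher and 3 lower in adipocytes. Library totals moved the median of all genes from -0.011 to -0.205 in adipocytes (1293 higher and 3899 lower genes in place of 2487 and 2362), from 0.0609 to 0.712 between tissues and from -0.00649 to -0.242 for the difference; the members called under TMM kept their calls in adipocytes, and Cyp2t4 passed there as lower, as it did with halved counts. Among the members followed, signs turned only for those that had not passed, and none of these passed. Cyp2d22 in adipocytes was at 0.03798 with age as a covariate and from -0.178 to 0.1771 without 1 library (0.03267 without KO-1137). Liver Cyp2e1 was at -0.005988 with no filter, at -0.002385 with all 16 libraries, and from -0.1261 to 0.08513 without 1 library. Liver Cyp2b9 was at -0.09953 with age as a covariate and from -3.963 to 1.467 without 1 library. With day 76 only, liver Cyp1a1 was at 0.1028 and Cyp1a2 at 0.1516. Without 1 library, these were at -0.4518 to 0.3053 and -0.194 to 0.1141, Cyp2u1 at -0.2913 to 0.08386 and Cyp2d9 at -0.2521 to 0.0185. The causes were not tested.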
